A study of Mus musculus with 71 samples.

Results

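Secretory IgA reaches the gut lumen through a relay between cell types, and 7 genes of that relay are described here in 65 bulk RNA-sequencing libraries of Btnl2-KO and WT mice. The genes are Pigr, Jchain, Mzb1, Xbp1, Cd79a, Cd79b and Ms4a1, chosen by name with earlier results of these data known, and they are 7 of the 24475 gene identifiers in the deposited tables. All 7 were present in each of the 3 tables, and all 7 passed the filter on low counts in every tissue comparison, while 27 of 42 possible tests in the epithelial fraction and 22 of 42 in sorted lymphocytes could be made.

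Plasma cells of the lamina propria secrete IgA as dimers that are joined by the J chain, and the polymeric Ig receptor on the basolateral side of epithelial cells binds these dimers and carries them across to the lumen. Secretion on that scale fills the endoplasmic reticulum, so plasma cells rely on its chaperones and on the unfolded protein response. Their precursors, B cells, carry surface immunoglobulin with its signalling chains and collect in lymphoid follicles of the gut wall.

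The mice were females on a C57BL/6 background, either Btnl2-KO, which carry a germline null allele with LacZ in place of Btnl2, or cohoused WT littermates. Unfractionated small intestine (SI) was sequenced in 7 Btnl2-KO and 7 WT libraries and colon in 7 Btnl2-KO and 6 WT libraries, all labelled YNG with no age in weeks and no stretch of bowel named. Intestinal epithelial cells (IECs), a fraction released by EDTA and enriched on Percoll, came from duodenum (2 Btnl2-KO, 3 WT), jejunum (3 and 3) and ileum (3 and 2) at 7 weeks according to the labels. γδ intraepithelial lymphocytes (IELs) are T cells that lie between the epithelial cells. According to the paper they were sorted as CD45+ TCRβ- TCRγδ+ cells and pooled from a pair of mice per library. Their age is 10 weeks by the labels and slightly higher in the paper. They came from duodenum (3 Btnl2-KO, 4 WT), jejunum (4 and 4) and ileum (3 and 4).

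Library totals ranged from 13619314 to 21708727 expected counts in tissue, from 15397757 to 38258478 in IECs and from 13444964 to 30029485 in IELs. Btnl2 separated the genotypes in tissue, at 0.674 to 2.44 CPM (counts scaled to the library total) in Btnl2-KO SI against 23.9 to 103 CPM in WT SI, and at no more than 1 count in any Btnl2-KO colon library. Replicate numbers follow the order of the library numbers within each group, as the labels hold none. In IECs, replicate 2 of those labelled jejunal Btnl2-KO (library 1003474) held 19.5 CPM of Btnl2. Replicate 1 of those labelled duodenal Btnl2-KO (library 1003459) held 5.45 CPM. The other 6 Btnl2-KO libraries held 0.342 to 0.595 CPM and the WT libraries 25.1 to 67.7 CPM. By Fabp6, the ileal bile acid-binding protein, 3 libraries went against their segment: 220 CPM in the same duodenal library, 484 CPM in the same jejunal library and 0.231 CPM in replicate 1 of those labelled ileal Btnl2-KO (library 1003481). All 3 were kept in their labelled groups. Leaving out the jejunal or the ileal one gave no call among the 7 genes, and leaving out the duodenal one leaves 1 Btnl2-KO library there. With every library edgeR called 0 of all genes by genotype in jejunal IECs and 1 in ileal IECs, so these fits could hardly show an effect of the labels. In tissue, SI WT replicate 4 stood apart by B cell genes (summed level of the 18 genes of the B cell list 230 CPM against 39.9 to 80.9 CPM in the other 13 SI libraries), and colon WT replicate 1 and colon Btnl2-KO replicate 5 by exocrine pancreas genes (624 and 992 CPM). SI WT replicates 2 and 3 held large-bowel genes: Car1, a carbonic anhydrase of colon epithelium, was 846 and 1624 CPM there, against at most 0.61 CPM in the other 12 SI libraries and 575 to 1212 CPM in colon, and Aqp8 was 11.5 and 27.9 CPM against at most 0.203 CPM, while Hoxb13, at 111 to 430 CPM in colon, was at most 0.0584 CPM in both. Results in tissue are given with and without these libraries where a call or a value moves. The labels do not say which SI and colon libraries share a mouse, so p-values measure the spread between these libraries.

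Pigr, the receptor that carries IgA across the epithelium, was among the steadiest of the 7 genes in tissue. Its level in SI WT ran from 3218 to 4619 CPM, and in SI Btnl2-KO from 3213 to 5219 CPM with a median of 4483 CPM. In colon it ran from 4571 to 5306 CPM (median 5014) in WT and from 4713 to 6511 CPM (median 5361) in Btnl2-KO. The 2 tissues overlapped only at the top of the SI range and the bottom of the colon range. In WT the level was 1.25-fold lower in SI than in colon (log2 difference -0.33 ± 0.12 SE, FDR 0.0387, edgeR quasi-likelihood test), and in Btnl2-KO 1.28-fold lower (-0.35 ± 0.13, FDR 0.0366). Both differences passed the false discovery threshold of 0.05, which 46.9% of the 15162 genes tested did in WT and 51.1% of 14798 in Btnl2-KO, but not the fold threshold of 1.5 that a call here also needs. Passing the FDR threshold rested on single libraries: leaving out 1 library at a time gave an FDR of 0.05 or more in 7 of 13 fits in WT (0.0217 to 0.0775) and in 7 of 14 in Btnl2-KO (0.024 to 0.0894). Without SI WT replicates 2 and 3, which hold large-bowel genes, the WT difference was -0.24 ± 0.12 (FDR 0.12).

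The region at the start of Pigr is shown because this gene is the transport step itself. The Jchain region is shown beside it because Jchain differed most between the tissues in WT with every library kept. Each runs from 250 bases before to 50 bases after the transcript start in RefSeq, build GRCm38.p6, 5′ to 3′ on the gene's strand. Of the 7 genes, 4 had an entry in that table. Capitals mark matches, on either strand, to CACGTG, an E-box, and to ACGTG, a core shared by elements of the unfolded protein response and contained in CACGTG.
Pigr, chr1:130826434-130826733, plus strand: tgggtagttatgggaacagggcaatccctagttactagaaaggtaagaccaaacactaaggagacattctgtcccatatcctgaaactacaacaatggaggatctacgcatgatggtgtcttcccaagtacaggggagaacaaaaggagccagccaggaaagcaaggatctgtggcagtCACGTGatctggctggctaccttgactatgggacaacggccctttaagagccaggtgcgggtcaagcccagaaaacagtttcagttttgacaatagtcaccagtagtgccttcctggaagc
Jchain, chr5:88527848-88528147, minus strand: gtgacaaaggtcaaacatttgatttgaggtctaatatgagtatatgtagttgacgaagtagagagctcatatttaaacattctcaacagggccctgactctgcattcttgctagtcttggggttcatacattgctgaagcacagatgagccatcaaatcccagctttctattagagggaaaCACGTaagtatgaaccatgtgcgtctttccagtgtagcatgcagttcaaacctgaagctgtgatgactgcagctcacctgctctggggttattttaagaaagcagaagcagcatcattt
The E-box of Pigr lies 71 to 66 bases before the start. In Jchain the match is to ACGTG alone, on the other strand, 69 to 65 bases before the start. CACGTG occurs in 7.15% of the 32851 start regions of the same length and ACGTG in 19.6%. The octamer ATGCAAAT, known from immunoglobulin promoters, has no match in the 4 regions and occurs in 1.74% of all.

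Jchain encodes the chain that joins IgA into dimers and gives it its binding site for the receptor, and it was the member with the largest difference between tissues. In SI WT it ran from 1292 to 3045 CPM (median 1990) and in SI Btnl2-KO from 905 to 2385 CPM (median 1644). In colon WT it ran from 307 to 568.4 CPM (median 437), and in colon Btnl2-KO from 69.4 to 791 CPM (median 361). No SI library was as low as any colon library. Jchain was 4.91-fold higher in SI than in colon in WT (log2 difference 2.30 ± 0.23 SE, FDR 2.06e-06, edgeR) and 4.54-fold higher in Btnl2-KO (2.18 ± 0.51, FDR 0.00193).

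Mzb1, an endoplasmic reticulum co-chaperone of plasma cells and B cells that helps assemble antibody, followed the same direction at a far lower level. It ran from 10.5 to 32.7 CPM (median 24.4) in SI WT, from 8.98 to 24.7 CPM (median 14.1) in SI Btnl2-KO, from 4.09 to 9.21 CPM (median 7.31) in colon WT and from 1.72 to 13.5 CPM (median 4.98) in colon Btnl2-KO. The WT groups did not overlap, while in Btnl2-KO the 2 highest colon libraries, at 10.1 and 13.5 CPM, lay within the SI range. The difference was 3.23-fold in WT (log2 1.69 ± 0.29, FDR 0.000269) and 2.67-fold in Btnl2-KO (1.42 ± 0.40, FDR 0.00698), both higher in SI.

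Xbp1, the transcription factor through which the unfolded protein response drives secretory capacity, is used by plasma cells and by secretory epithelial cells alike. It ran from 190 to 275 CPM (median 259) in SI WT, from 213 to 301 CPM (median 233) in SI Btnl2-KO, from 158 to 214 CPM (median 182) in colon WT and from 134 to 240 CPM (median 199) in colon Btnl2-KO. The ranges overlapped in both genotypes. Xbp1 was 1.33-fold higher in SI in WT (log2 0.42 ± 0.11, FDR 0.00535) and 1.29-fold higher in Btnl2-KO (0.37 ± 0.12, FDR 0.0163), below the fold threshold.

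Ms4a1 encodes CD20, which B cells carry and plasma cells have lost, and its pattern was the reverse of that of Jchain. In colon it ran from 0.760 to 14.3 CPM (median 6.25) in WT and from 0.782 to 8.53 CPM (median 4.20) in Btnl2-KO. In SI Btnl2-KO it ran from 0.155 to 1.62 CPM (median 1.02), and in SI WT 6 libraries held 0.201 to 1.63 CPM while replicate 4 held 19.2 CPM. In Btnl2-KO Ms4a1 was 4.86-fold lower in SI than in colon (log2 -2.28 ± 0.50, FDR 0.00116). In WT the difference was -0.89 ± 0.90 (FDR 0.438) with every library and -2.89 ± 0.63 (FDR 0.00221) without SI WT replicate 4, so this library decided the call.

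Cd79a and Cd79b encode the signalling chains of the B cell receptor. Cd79a ran from 6.94 to 39.6 CPM (median 20.7) in SI WT, from 5.63 to 15.7 CPM (median 10.3) in SI Btnl2-KO, from 3.28 to 22.3 CPM (median 11.7) in colon WT and from 3.84 to 17.5 CPM (median 11.4) in colon Btnl2-KO. Cd79b ran from 4.32 to 24.0 CPM in SI WT, from 3.88 to 9.31 CPM in SI Btnl2-KO, from 1.81 to 12.8 CPM in colon WT and from 2.98 to 11.96 CPM in colon Btnl2-KO. For both genes the tissues overlapped almost throughout. The log2 difference of SI against colon was 0.68 ± 0.46 (FDR 0.25) for Cd79a and 0.41 ± 0.46 (FDR 0.482) for Cd79b in WT. In Btnl2-KO it was 0.03 ± 0.36 (FDR 0.958) and -0.07 ± 0.32 (FDR 0.861), with an approximate 95% interval from -0.68 to 0.73 for Cd79a.

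Of the 7 genes, 2 were called between the tissues in WT, both higher in SI, where 15.6% of all genes tested were called higher, 12% lower and 27.6% either way. In Btnl2-KO 3 were called, 2 higher and 1 lower, where 15.7% of genes were called higher, 14.4% lower and 30.2% either way. Compared per kilobase of exon, the mean level in SI WT was 972 CPM for Pigr, 822 CPM for Jchain, 75.5 CPM for Xbp1, 18.4 CPM for Mzb1, 12.9 CPM for Cd79a, 6.54 CPM for Cd79b and 0.564 CPM for Ms4a1. In colon WT the order was the same up to Xbp1 (1237, 170 and 57.4 CPM per kilobase), then Cd79a at 8.24, Mzb1 at 5.77, Cd79b at 4.995 and Ms4a1 at 1.07 CPM per kilobase. Between WT libraries, the ranges of the neighbours Mzb1, Cd79a and Cd79b overlapped in both tissues, as did those of Pigr and Jchain in SI and of Cd79b and Ms4a1, so only Xbp1 in SI and the first 3 genes in colon stood clear of their neighbours. In bulk tissue, fewer cells of a type and less RNA per cell cannot be told apart.

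**Figure D1:**
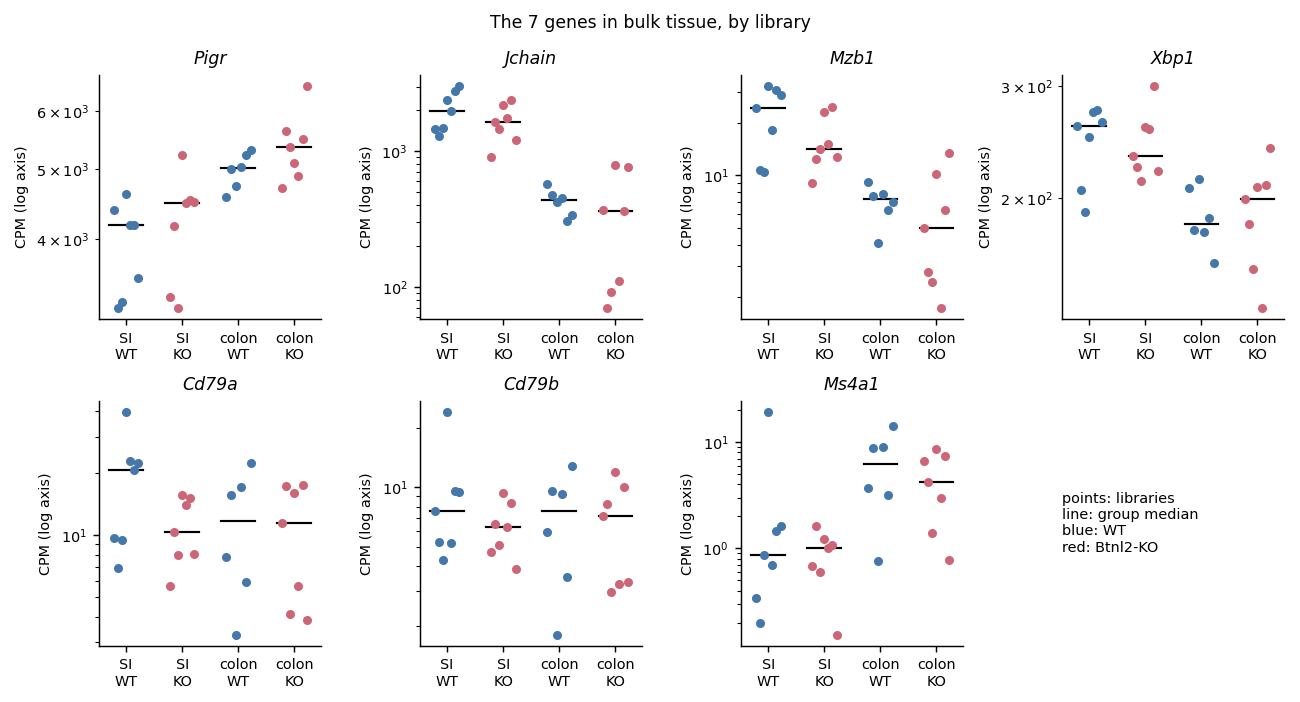
Level of each of the 7 genes (CPM, log axis) in every tissue library of SI and colon, WT in blue and Btnl2-KO (KO) in red, with a line at each group's median; the position of points within a group carries no order. Jchain is higher in every SI library than in any colon library, Ms4a1 is higher in most colon libraries apart from 1 SI WT library at 19.2 CPM, and 3 colon Btnl2-KO libraries sit low in Jchain at 69.4, 91.1 and 111 CPM.

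**Figure D2:**
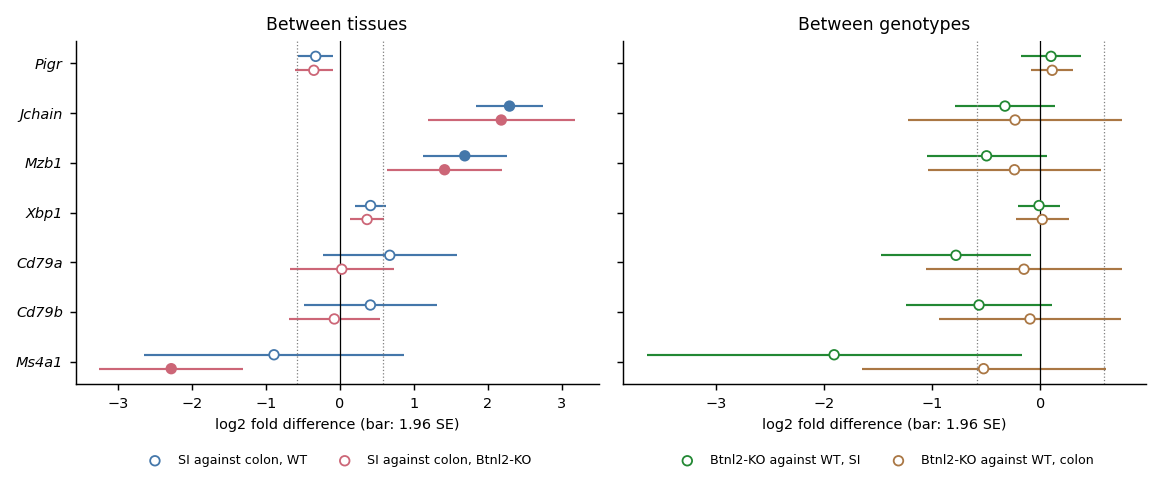
Log2 fold differences of the 7 genes between tissues (left) and between genotypes (right), with bars for the approximate 95% interval, filled symbols for called genes and dotted lines at a fold of 1.5. Jchain and Mzb1 are filled on the SI side in both genotypes, Ms4a1 is filled on the colon side in Btnl2-KO, and no gene is filled between genotypes.

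Of the 15 plasma cell genes, all tested, 9 were called higher and 0 lower in WT SI, and 6 higher and 0 lower in Btnl2-KO SI. Differences below 0, none of them called, were found for 2 of the 15 in WT and for 5 in Btnl2-KO. Over all genes tested, 15.6% were called higher and 12% lower in WT, and 15.7% and 14.4% in Btnl2-KO. The median log2 difference of the list was 0.75 in WT and 0.36 in Btnl2-KO, against 0.03 and -0.02 over all genes tested. The largest in WT were Derl3 (2.27 ± 0.30, FDR 2.5e-05), a factor of endoplasmic reticulum-associated degradation, Prdm1 (2.03 ± 0.17, FDR 2.7e-07), which encodes Blimp-1, a regulator of plasma cells and of T cells, Tnfrsf17 (1.72 ± 0.26, FDR 0.0001), the survival receptor BCMA, and Tnfrsf13b (1.67 ± 0.29, FDR 0.00028), the receptor TACI. In the IEC fraction 6 of these 15 genes (Sdc1, Sec11c, Creld2, Txndc5, Cd38 and Ssr4) had medians of at least 10 CPM. Tnfrsf17 was at 0 counts in every IEC library. In sorted γδ IELs 8 of the 15 had medians of at least 10 CPM: these 6, Prdm1 at 24.9 to 92.4 CPM and Slamf7 at 106 to 195 CPM. Genes of other cells were higher in SI beside the list. All 6 T cell and all 8 measured γδ IEL genes were called higher in both genotypes, and 5 of 6 myeloid genes were in WT and 2 of 6 in Btnl2-KO. Their part in the result was not tested.

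Many B cell genes were lower in SI in Btnl2-KO. Of 18 in the list 16 were tested, 10 were called lower in SI and 0 higher, 4 had differences above 0, and the median was -1.05. The largest were Cr2 (-3.54 ± 0.53, FDR 4.2e-05), the complement receptor of B cells and follicular dendritic cells, Fcer2a (-2.83 ± 0.51, FDR 0.00024), Fcmr (-2.78 ± 0.51, FDR 0.00027) and Cxcr5 (-2.67 ± 0.42, FDR 6.2e-05), the receptor that guides B cells into follicles. In WT 0 of 18 were called lower and 2 higher, Vpreb3 (1.83 ± 0.53, FDR 0.011) and Cd72 (1.13 ± 0.30, FDR 0.0068), with a median of -0.41. Cd72 also had a median of at least 10 CPM in sorted IELs, where most B cell genes were under 1 CPM. Without SI WT replicate 4, 9 of 18 were called lower and 2 higher, with a median of -1.08. With every library, 12% of all genes tested were called lower and 15.6% higher in WT, and 14.4% and 15.7% in Btnl2-KO.

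Of 10 genes of lymphoid follicles and the epithelium over them, 2 were higher and 2 lower in WT SI (9 tested), the lower ones being Gp2 (-2.45), a receptor of M cells, and Ccl20 (-1.53), the chemokine of that epithelium, and the higher ones Tnfaip2 (1.09) and Madcam1 (0.94), the vessel addressin that homing lymphocytes bind. Without SI WT replicates 2 and 3, 2 were called higher and 0 lower of 10 tested. In Btnl2-KO 1 was lower of 8 tested, Cxcl13 (-1.26), which draws B cells into follicles, and 2 were higher, again Tnfaip2 (0.92) and Madcam1 (0.76). Among 6 germinal centre genes Rgs13 alone was called, higher in SI in both genotypes (1.42 ± 0.48 in WT and 1.86 ± 0.57 in Btnl2-KO). Counts of both lists were not far from the shares over all genes tested. Those were 15.6% higher and 12% lower in WT, and 15.7% and 14.4% in Btnl2-KO.

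A list of 14 genes held factors that induce IgA or keep plasma cells alive and genes that guide IgA-committed cells to the bowel, and 11 were tested in each genotype. In WT 7 were called higher and 2 lower in SI, and in Btnl2-KO 6 and 2. The shares over all genes tested were 15.6% higher and 12% lower in WT, and 15.7% and 14.4% in Btnl2-KO. Among the homing genes Ccl25, the small-bowel chemokine, was higher by 6.66 ± 0.17 (log2, WT) and its receptor Ccr9 by 3.37 ± 0.28. Itgb7, a chain of the homing integrin, was higher by 1.92 ± 0.24. Ccl28, the chemokine of large-bowel epithelium that also draws IgA plasma cells, was lower by 1.42 (log2 -1.42 ± 0.25), and lower by 1.52 in Btnl2-KO (-1.52 ± 0.21). Among the induction and survival genes called in WT, Aldh1a2, which makes retinoic acid (1.44 ± 0.25), and Tnfsf13b, the survival factor BAFF (0.93 ± 0.21), were higher, and Tslp (-0.59 ± 0.23) was lower. T cell genes moved with these: all 6 of the T cell list were higher in SI in both genotypes, with a summed level of 33.5 to 102 CPM in SI and 5.17 to 18.1 CPM in colon. Ccr9, Itgb7 and other homing genes are also used by T cells, and their part in the result was not tested.

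Several regulators of Pigr were higher in SI. Of 11 genes that carry cytokine and microbial signals to Pigr, 5 were called higher and 0 lower in WT and 7 higher and 0 lower in Btnl2-KO, with list medians of 0.61 and 0.85. Il4ra (1.09 ± 0.13 in WT and 1.39 ± 0.12 in Btnl2-KO), the receptor chain for IL-4, Relb (0.74 ± 0.25 and 1.27 ± 0.16), an NF-κB subunit, and Irf1 (0.73 ± 0.12 and 1.14 ± 0.16) were among them. Of 7 genes for the vesicle route that Pigr takes, Rab25 (-0.70 ± 0.07 in WT) and Rab3b (-0.69 ± 0.15) were lower in SI in both genotypes, and Myo5b was called higher in Btnl2-KO (1.02 ± 0.11) but not in WT (0.52 ± 0.16, below the fold threshold); the interaction was 0.51 ± 0.19 (FDR 0.323). Of 12 epithelial genes 2 were higher and 1 lower in WT and 4 higher and 0 lower in Btnl2-KO. Their summed level was 9808 to 19190 CPM in SI and 10780 to 16300 CPM in colon. Among all genes tested, 15.6% were called higher and 12% lower in WT, and 15.7% and 14.4% in Btnl2-KO. The epithelial counts in WT were near these shares. Genes of γδ IELs moved with the regulators, all 8 measured being higher in SI, with a summed level of 64.2 to 213 CPM in SI and 5.26 to 12.3 CPM in colon, and their part in the result was not tested.

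Genes of the unfolded protein response, which lies around Xbp1, moved less as a group. Of 15 genes 3 were called higher and 1 lower in WT, and 1 higher and 1 lower in Btnl2-KO. Of all genes tested, 15.6% were called higher and 12% lower in WT, and 15.7% and 14.4% in Btnl2-KO. The counts of this list were near or below those shares. Ern2, the epithelial form of the sensor that splices Xbp1, was lower in SI by 1.52 in both (log2 -1.52 ± 0.12 in WT), while Manf (0.78 ± 0.21), Sdf2l1 (0.78 ± 0.14) and Hsp90b1 (0.62 ± 0.14), chaperones or their partners, were higher in WT. Of the 15, 14 had medians of at least 10 CPM in the IEC fraction. None of the 12 immunoglobulin constant region genes looked for has a row in the tables used here, so IgA heavy and light chain RNA itself was not analysed here.

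Between genotypes no member was called in either tissue. In SI 0 of 7 passed, where 0.0202% of the 14866 genes tested did. By edgeR 2 of the 7 had an unadjusted p under 0.05 (DESeq2 1, limma-voom 0), where 3415 of all 14866 genes tested did (DESeq2 3579). These 2 were Cd79a, whose log2 difference of Btnl2-KO against WT was -0.78 ± 0.35 (FDR 0.203), and Ms4a1, with -1.91 ± 0.89 (FDR 0.214). Both included SI WT replicate 4, and without it the values were -0.49 for Cd79a and 0.09 for Ms4a1, and -0.13 for Cd79b. For Jchain the difference was -0.33 ± 0.24 (FDR 0.398), for Mzb1 -0.50 ± 0.28 (FDR 0.295), for Cd79b -0.57 ± 0.34 (FDR 0.322), for Pigr 0.10 ± 0.14 (FDR 0.684) and for Xbp1 -0.01 ± 0.10 (FDR 0.944). Without SI WT replicates 2 and 3 no member was called, and the values were -1.07 ± 0.31 for Cd79a (FDR 0.0568), -0.77 ± 0.23 for Mzb1 (FDR 0.0623) and -0.50 ± 0.24 for Jchain (FDR 0.193). They were -2.32 ± 0.85 for Ms4a1 (FDR 0.103), -0.82 ± 0.33 for Cd79b (FDR 0.132), -0.11 ± 0.09 for Xbp1 (FDR 0.442) and 0.01 ± 0.15 for Pigr (FDR 0.97). With every library the approximate 95% interval of Pigr ran from -0.177 to 0.372 on the log2 scale and that of Jchain from -0.792 to 0.135.

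Lists of other genes also leaned to 1 side by genotype in SI. The 18 B cell genes had a median log2 difference of -0.92 and 15 of 16 tested were below 0, the 15 plasma cell genes a median of -0.21 with 12 below 0, and the 12 epithelial genes a median of 0.17 with 10 above 0. All 6 myeloid genes (median -0.37) and all 6 smooth muscle genes (-0.30) were below 0, and all 8 γδ IEL genes (0.44) and all 11 genes of Pigr regulation (0.28) above 0. With every library none of the genes of these lists was called by the 2-group edgeR fit. DESeq2, limma-voom and the fit of all tissue libraries together each called 1 B cell gene lower. Without SI WT replicate 4 the median of the B cell genes was -0.11, and without SI WT replicates 2 and 3 it was -1.23, with 2 called lower. That of the plasma cell genes was -0.18 without replicate 4 and -0.35 without replicates 2 and 3, with 1 called lower. Without replicates 2 and 3, 324 genes were called in all. Genes of the distal small bowel were all 5 above 0 with a median of 0.74, and their mean log2(CPM + 1) ran from 6.49 to 9.13 in WT and from 7.35 to 9.76 in Btnl2-KO. The part of these in the members' values was not tested.

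In colon 0 of 7 passed, where 0.0269% of 14871 genes did, and none had an unadjusted p under 0.05 by edgeR, DESeq2 or limma-voom. Over all genes 616 had such a p by edgeR and 719 by DESeq2. The log2 difference of Btnl2-KO against WT was -0.23 ± 0.51 for Jchain, -0.24 ± 0.41 for Mzb1, -0.15 ± 0.46 for Cd79a, -0.10 ± 0.43 for Cd79b, -0.53 ± 0.58 for Ms4a1, 0.11 ± 0.10 for Pigr and 0.02 ± 0.12 for Xbp1, with FDR of at least 0.972. The difference between the 2 genotype effects was tested as an interaction over all 27 libraries. It called 0 of 7 members, where 0.0193% of 15540 genes were called. None of the members had an unadjusted p under 0.05 (DESeq2 also 0), where 1998 of all genes did (DESeq2 2134). The largest interaction of a member was that of Ms4a1, -1.39 ± 1.11 (FDR 0.599), and it turned to 0.69 (FDR 0.769) without the 3 libraries of high B cell or pancreas genes.

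The members also differed in how far they varied between libraries of 1 group. In colon Btnl2-KO, Jchain was 69.4, 91.1 and 111 CPM in replicates 2, 3 and 5 and 361, 365, 763 and 791 CPM in the other 4, an 11.4-fold range, against 1.85-fold over the 6 WT libraries. Its biological coefficient of variation there was 0.736 against 0.208 on the trend of all genes at that level. In the same 3 libraries Mzb1 was 2.77, 2.43 and 1.72 CPM, the lowest of the 7, and Tnfrsf17 was 0.76, 0.30 and 0.46 CPM, also the lowest, and the mean log2(CPM + 1) of the 15 plasma cell genes was 3.90, 3.599 and 3.63, against 4.09 to 4.49 in the other 4. Pigr in these libraries was 5642, 5361 and 4883 CPM, within the range of the others, and Cd79a was 17.3, 4.13 and 5.63 CPM. Replicate 5 is the library with exocrine pancreas genes, and replicates 2 and 3 held 0 CPM of these genes. In colon WT the most variable members were Ms4a1, over an 18.8-fold range, Cd79b over 7.07-fold and Cd79a over 6.795-fold, while Pigr varied over 1.16-fold.

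Correlations between members were computed over the libraries of each tissue after the group means were subtracted, for 21 pairs in SI (n = 14) and 21 in colon (n = 13), with Benjamini-Hochberg adjustment over the 42 permutation p-values, 100000 resamples each. In colon 6 pairs passed by r and 5 by rho, and those by r formed 2 separate triplets. Cd79a and Cd79b had r = 0.97 (rho = 0.92), Cd79a and Ms4a1 r = 0.95 (rho = 0.92) and Cd79b and Ms4a1 r = 0.94 (rho = 0.93), each with adjusted permutation p = 0.00014 for r, the smallest the resamples allow here, and 0.0007 for rho. These held without the 2 libraries farthest from the median of the first gene, with r of 0.97, 0.91 and 0.90.

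The second triplet in colon was Jchain and Mzb1 (r = 0.90, rho = 0.86, adjusted permutation p = 0.00105 and 0.00193), Jchain and Xbp1 (r = 0.74, rho = 0.68, adjusted permutation p = 0.0133 and 0.0284) and Mzb1 and Xbp1 (r = 0.72, rho = 0.62, adjusted permutation p = 0.0172 and 0.0568, the first value for r and the second for rho). Without the 2 farthest libraries r was 0.90, 0.87 and 0.41, so the last pair rested on these libraries. Most of the range came from Btnl2-KO: r of Jchain and Mzb1 was 0.94 over the 7 Btnl2-KO and 0.43 over the 6 WT libraries. Between the triplets, Jchain had r = 0.06 with Cd79a, 0.24 with Cd79b and 0.12 with Ms4a1 in colon (adjusted permutation p = 0.899, 0.61 and 0.799). Over the 6 WT libraries alone, Xbp1 had r = -0.88, -0.83 and -0.91 with Cd79a, Cd79b and Ms4a1. In Btnl2-KO these were 0.29, 0.46 and 0.15. Mzb1 had 0.64, 0.73 and 0.66 with the same genes in WT, against 0.10, 0.34 and 0.06 in Btnl2-KO. Mzb1 with Xbp1 was -0.35 in WT and 0.92 in Btnl2-KO. The second triplet was thus not seen as a set in WT, though r by genotype was not tested.

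In SI 14 of 21 pairs passed by r and 14 by rho, and 7 did by r without the 2 farthest libraries. There Cd79a varied with Jchain (r = 0.85, rho = 0.83, adjusted permutation p = 0.0015 and 0.00322, r = 0.79 without the 2 farthest), as did Mzb1 (r = 0.85, rho = 0.79, adjusted permutation p = 0.00143 and 0.00658, r = 0.78 without them). Cd79a with Ms4a1 had r = 0.74 (rho = 0.71, adjusted permutation p = 0.00252 and 0.0183) and r = 0.54 without the 2 farthest libraries, where it no longer passed. Whether r of a pair differs between SI and colon was not tested. Cd79b with Ms4a1 had r = 0.87 (rho = 0.81) and r = 0.75 without them. Pigr passed with Mzb1 (r = 0.70, rho = 0.71, adjusted permutation p = 0.0178 and 0.0191, r = 0.73 without the 2 farthest), with Cd79a (r = 0.67, rho = 0.68, adjusted permutation p = 0.0217 and 0.0234) and, by r alone, with Xbp1 (r = 0.64, rho = 0.51, adjusted permutation p = 0.0296 and 0.117). The pairs of Pigr with Xbp1 and Cd79a did not pass without the 2 farthest libraries, at r = 0.63 and 0.64. Without SI WT replicates 2 and 3 (n = 12) r was 0.54 for Pigr with Mzb1, 0.45 with Xbp1 and 0.51 with Cd79a, against 0.80 for Jchain with Cd79a and 0.83 with Mzb1. In colon Pigr passed with no other member. Over the WT colon libraries alone its r was -0.83 with Jchain and -0.86 with Xbp1, and -0.02 to 0.59 with the others. In Btnl2-KO the values with Jchain and Xbp1 were 0.20 and 0.52, and r by genotype was not tested.

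**Figure D3:**
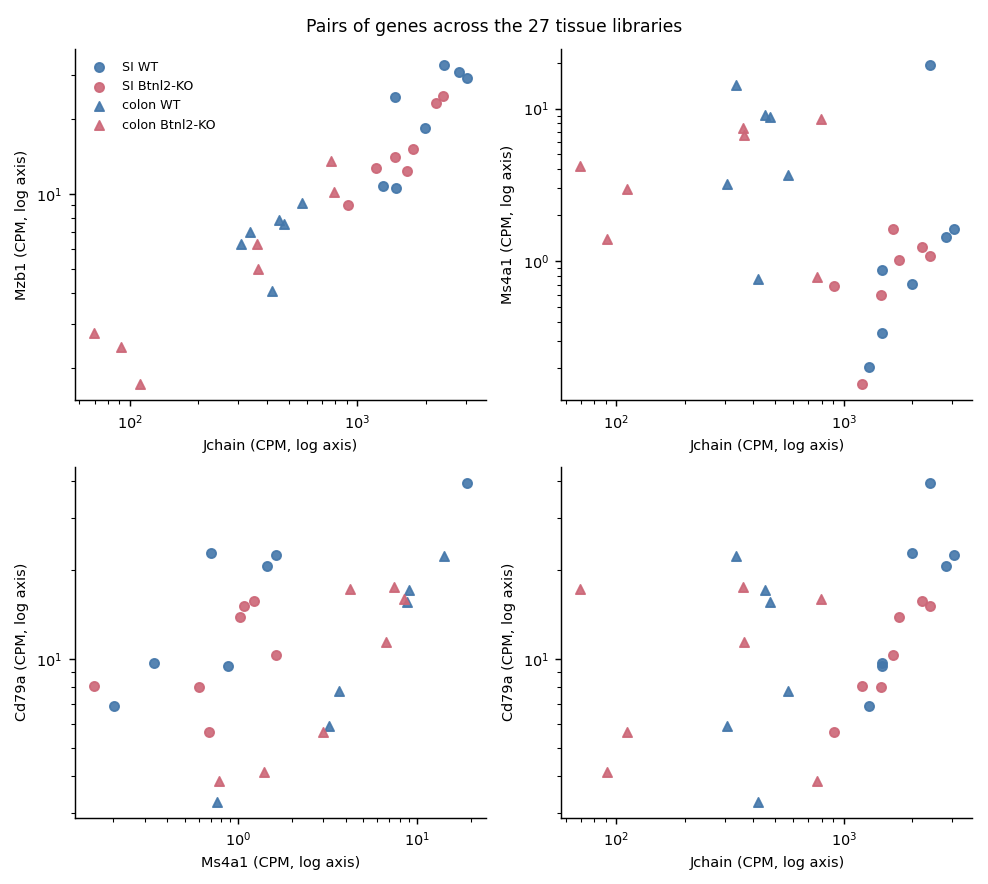
Levels of 4 pairs of genes (CPM, both axes log) in the 27 tissue libraries, circles for SI and triangles for colon, WT in blue and Btnl2-KO in red. Jchain and Mzb1 are high in the same SI libraries and low in the same colon libraries. Cd79a follows Ms4a1 in colon (r = 0.95), and in SI it follows Jchain (r = 0.85) and Ms4a1 (r = 0.74). These r are of log2(CPM + 1) with group means subtracted, while the panels show CPM without that subtraction. The SI WT library with 19.2 CPM of Ms4a1 lies apart in the panels with that gene.

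As a description with no test, the genes whose group-centred levels were most like a member over the 27 tissue libraries were sought among 15540 genes. For Jchain they were Cd28 (r = 0.90), a costimulatory receptor of T cells and plasma cells, Irf4 (r = 0.90), a regulator of plasma cell fate, Tmem154 (r = 0.87), Mzb1 (r = 0.85) and Glipr1 (r = 0.85). For Cd79a they were Hvcn1 (r = 0.95), a proton channel of B cells, Tnfrsf13c (r = 0.94), the BAFF receptor, Dok3 (r = 0.93), Ltb (r = 0.92), a lymphotoxin chain, and Septin1 (r = 0.91). For Pigr they were Tnfsf13 (r = 0.79), which encodes the plasma cell survival factor APRIL, Cxcl1 (r = 0.76), Sp110 (r = 0.70), Pstpip1 (r = 0.69) and Hk2 (r = 0.68). Each library is a mixture of cell types, so the likeness is between mixtures.

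In the IEC fraction Pigr was high, and Jchain, Mzb1, Cd79a, Cd79b and Ms4a1 were low. Pigr ran from 2079 to 6749 CPM over the 16 libraries, a range that includes all the tissue values, and Xbp1 from 101 to 219 CPM. Jchain ran from 0.692 to 7.03 CPM, Cd79b from 0.63 to 1.86 CPM, Cd79a from 0.0259 to 1.49 CPM, Ms4a1 from 0 to 1.45 CPM and Mzb1 from 0 to 0.338 CPM. Only 1 library reached 10 counts of Mzb1, and 4 did of Cd79a. The highest Cd79a and Ms4a1, 1.49 and 1.45 CPM, were in replicate 2 of the libraries labelled ileal Btnl2-KO. The tables were normalized separately, so these levels stand side by side without a test.

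Along the WT small bowel Pigr in IECs was 2079, 4997 and 5899 CPM in the 3 duodenal, 4432, 4786 and 5883 CPM in the 3 jejunal and 3122 and 4699 CPM in the 2 ileal libraries, so the segments overlapped. No member was called between segments, 0 of 4 tested for ileum against duodenum, 0 of 5 for jejunum against duodenum and 0 of 6 for ileum against jejunum, where 4.42%, 0.32% and 1.13% of all genes were. Between genotypes 0 of 4 were called in each segment, where 0.0%, 0.0% and 0.00774% of genes were called in duodenum, jejunum and ileum. In all 27 of these tests edgeR gave no unadjusted p under 0.05, DESeq2 gave 1 and limma-voom 3, none of them called. The smallest edgeR p, 0.0504 before adjustment, was that of Cd79b in jejunal IECs (log2 difference of Btnl2-KO against WT -0.79 ± 0.35, FDR 0.569). With 2 or 3 libraries a group these tests had wide intervals: for Pigr in duodenum the SE was 0.51 on the log2 scale.

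In sorted γδ IELs the member that stood out was Cd79b. It was present in all 22 libraries at 97.1 to 180 CPM, beside 1.81 to 24.0 CPM in the tissue libraries, which were normalized separately. Its partner Cd79a, without which the B cell receptor is not assembled, ran from 0 to 2.28 CPM and Ms4a1 from 0 to 0.665 CPM in the same libraries. Per kilobase of exon the means were 90.3 CPM for Cd79b and 0.317 CPM for Cd79a. Of the 18 B cell genes 13 had medians under 1 CPM, Cr2 among them at 0 to 0.588 CPM, while Cd37, a tetraspanin of lymphocytes, ran from 188 to 317 CPM and Cd72 from 161 to 307 CPM. With these the summed level of the list was 371.5 to 624 CPM, above the 230 CPM of the highest tissue library. Cd3e, a CD3 chain of the T cell receptor complex, ran from 846 to 1923 CPM. In IECs, with Cd3e at 0.461 to 21.8 CPM, Cd79b was at most 1.86 CPM.

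By segment and genotype, Cd79b in IELs was 110, 118, 125 and 140 CPM in duodenal WT, 117, 121, 126 and 131 CPM in jejunal WT and 97.1, 103, 118 and 146 CPM in ileal WT. In Btnl2-KO it was 116, 118 and 125 CPM in duodenum, 112, 152, 161 and 162 CPM in jejunum and 110, 155 and 180 CPM in ileum. The genotypes overlapped in every segment. The log2 difference of Btnl2-KO against WT was -0.04 ± 0.13 in duodenum, 0.29 ± 0.14 in jejunum (unadjusted p = 0.0692, FDR 0.583, edgeR) and 0.38 ± 0.23 in ileum (FDR 0.637), where limma-voom called it higher in Btnl2-KO (0.67, FDR 0.0378). In that ileal comparison limma-voom called 1207 genes and edgeR 0.

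Pigr was also read in the sorted IELs, at 11.9 to 943 CPM, and it moved with genes of epithelial cells. The lowest library, jejunal Btnl2-KO replicate 2, had the lowest mean of the 12 epithelial genes (log2(CPM + 1) of 3.82), and the next 2, ileal Btnl2-KO replicate 2 at 86.3 CPM and jejunal Btnl2-KO replicate 3 at 88.4 CPM, had the next lowest means, 5.96 and 6.40. Over the other 19 libraries Pigr was 248 to 943 CPM and that mean 6.72 to 9.02. In ileum Pigr was 86.3, 248 and 474 CPM in Btnl2-KO and 253, 629, 708 and 798 CPM in WT, a log2 difference of -1.14 ± 0.53 (unadjusted p = 0.0553, FDR 0.571, edgeR). With the epithelial mean as a covariate the difference was 0.43 on the log2 scale (FDR 0.7), opposite in sign, and limma-voom gave -1.46 (FDR 0.0273). Defining epithelial markers were present in every IEL library, with Epcam at 123 to 957 CPM and Vil1 at 2.72 to 184 CPM.

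Jchain in the IELs ran from 0 to 11.97 CPM. It was 0, 0.106, 0.864 and 4.83 CPM in duodenal WT, 0.0512, 0.0908, 3.36 and 4.70 CPM in jejunal WT and 0, 0.287, 0.600 and 11.97 CPM in ileal WT. Each of these groups held libraries near 0 beside libraries of several CPM. Mzb1 stayed at or below 0.955 CPM and Tnfrsf17, the plasma cell receptor, had no count in 3 of the 6 IEL groups. Xbp1 was steady at 117 to 260 CPM. Among the members tested between IEL segments 0 of 3, 0 of 4 and 0 of 3 were called for ileum against duodenum, jejunum against duodenum and ileum against jejunum, where 2.16%, 23.3% and 21.7% of genes were. Between genotypes 0 of 4, 0 of 3 and 0 of 5 were called in duodenum, jejunum and ileum, where 0.00789%, 0.00794% and 0.0% of genes were. In all 22 of these tests edgeR gave no unadjusted p under 0.05, DESeq2 gave 1, with no call, and limma-voom gave 7, with 3 calls, all in ileal comparisons. By genotype in ileal IELs limma-voom called 1207 of all genes, where edgeR called 0 of 12604, so its calls there were not particular to the members.

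**Figure D4:**
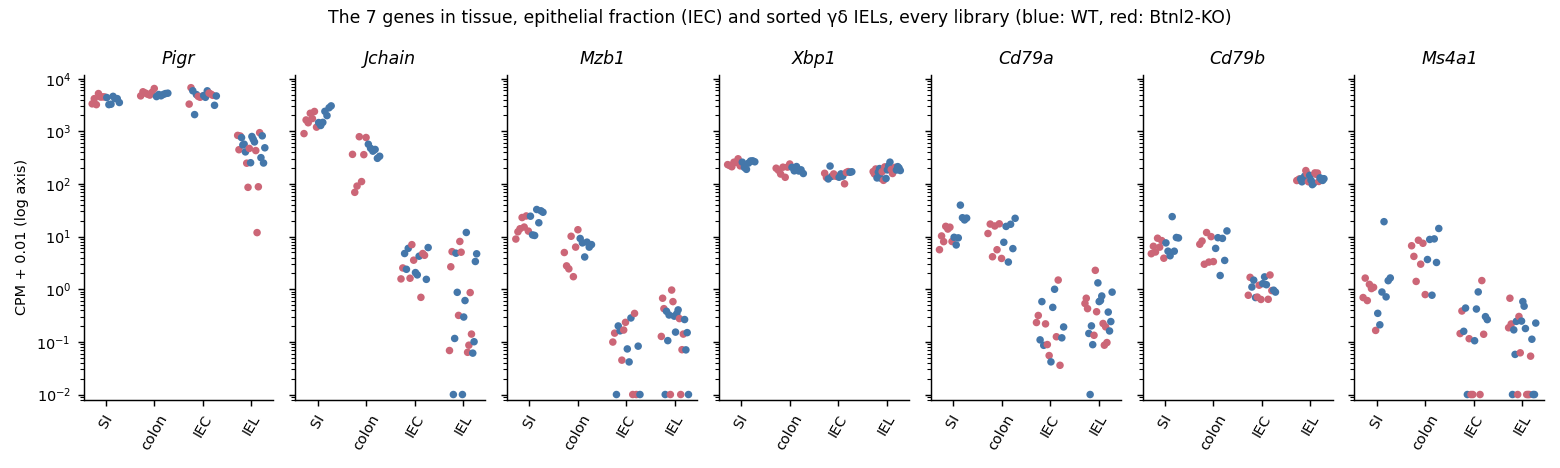
Level of the 7 genes (CPM + 0.01, log axis) in every library of SI, colon, IECs and γδ IELs, WT in blue and Btnl2-KO in red; the 3 tables were normalized separately. Pigr is at 2079 CPM or more in tissue and IECs and at 943 CPM or less in IELs, Jchain and Mzb1 are high in tissue alone, Xbp1 is similar throughout, and Cd79b is highest in IELs, where Cd79a is near 0.

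**Figure D5:**
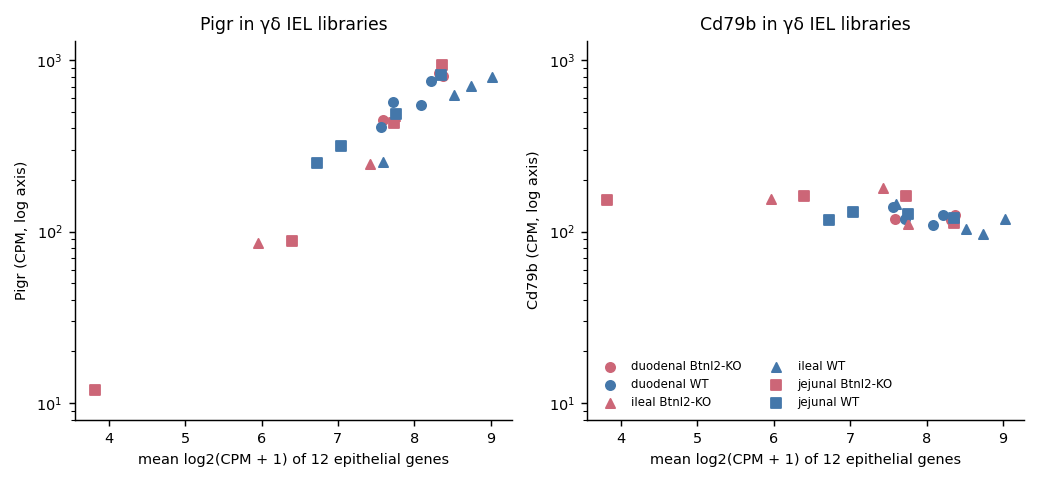
Pigr (left) and Cd79b (right) in the 22 γδ IEL libraries (CPM, log axis) against the mean log2(CPM + 1) of 12 epithelial genes, circles for duodenum, squares for jejunum and triangles for ileum, WT in blue and Btnl2-KO in red. Pigr climbs from 11.9 to 943 CPM along that axis while Cd79b stays between 97.1 and 180 CPM.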

How the data were processed

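RNA was sequenced in bulk from 27 tissue, 16 IEC and 22 γδ IEL libraries. The deposited values are expected counts per gene that the authors made with RSEM in ArrayStudio on the sense strand; the labels name GRCm38 as the build. The labels and the study's methods name different library kits. The expected counts were rounded to whole numbers, and gene identifiers that matched no symbol (100 of 24475, 0.253% to 9.24% of a library's counts) were kept in library sizes and tests. Of the IEL table, 1 column that matches no sample label was not used, nor was the single-cell data.

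Each comparison was fitted on its 2 groups with edgeR 4.0.16 (R 4.3.3; TMM, quasi-likelihood) over genes that reached 10 counts in a number of libraries no less than the size of the smaller group. A gene was called at a Benjamini-Hochberg FDR under 0.05 and a fold above 1.5. Levels are TMM-scaled CPM per table and SE are those of the fit. Alternatives were DESeq2 1.42.0, limma-voom (limma 3.58.1), other scaling, no filter, all libraries in 1 fit, each library left out and, for IELs, an epithelial covariate. The test was checked on simulated counts. Libraries of 1 group differed from each other beyond counting noise (chi-square per gene at least 5.28). Correlations used log2(CPM + 1).

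The 7 genes and the lists of other genes were chosen with earlier results of these data known. Named genes were the members, Btnl2, up to 4 called genes per list with the largest change, and the 5 genes most like Pigr, Jchain and Cd79a; single marker genes for cell type checks, Tnfrsf17 in colon libraries and list genes quoted for both genotypes were added after their values were seen. Libraries left out together were also chosen after seeing the data.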

Additional observations from a re-analysis of the deposited data

Results flagged for a closer look

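Each member was examined in each group of 4 to 7 libraries where any library had 10 counts of it, 46 cases in all, and in 2 of these a library lay far from the others by Dixon's test on log2(CPM + 1) at the 95% level, where chance alone gives about 5 percent. Ms4a1 was 19.2 CPM in SI WT replicate 4, against 0.201 to 1.63 CPM in the other 6 libraries. The same library held the highest Cd79a (39.6 CPM), Cd79b (24.0 CPM) and Cr2 (16.7 CPM) of all SI libraries, and its Jchain, at 2399 CPM, lay within the range of its group. Jchain was 0.855 CPM in jejunal IEL Btnl2-KO replicate 3, against 0.0534 to 0.131 CPM in the other 3 libraries of that group. This library held 32.6 CPM of Fabp6, where the other jejunal IEL libraries held 0 to 4.44 CPM.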

How the results depend on the processing

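The count of members called stayed within 1.5 times its value under every alternative run except these: without the minimum fold, 4 members passed between tissues in WT and 5 in Btnl2-KO, since Pigr and Xbp1 then counted; limma-voom called 1 member for ileum against jejunum in WT IELs (Pigr) and 2 for genotype in ileal IELs (Pigr and Cd79b); and the epithelial covariate called 1 for ileum against jejunum in WT IELs. Both of these calls for ileum against jejunum were of Pigr and went in opposite directions. The log2 difference was 0.85 by limma-voom (FDR 0.038) and -0.68 with the epithelial covariate (FDR 0.0078). Leaving out each library never moved such a count by over 1.5 times, but SI WT replicate 4 decided Ms4a1 in WT. Leaving out SI WT replicates 2 and 3, which held large-bowel genes, changed no call or sign of a member in tissue. Correlated pairs in SI fell from 14 to 7 without the 2 farthest libraries. The log2 difference of Jchain between tissues stayed between 2.18 and 2.40 in WT and between 2.01 and 2.50 in Btnl2-KO when any 1 library was left out.

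Some differences of members changed sign. With each library left out, SI against colon ran from -0.0252 to 0.66 for Cd79b in WT, from -0.12 to 0.20 for Cd79a and from -0.20 to 0.12 for Cd79b in Btnl2-KO; Btnl2-KO against WT ran in SI from -0.0681 to 0.0176 for Xbp1 and from -2.12 to 0.0884 for Ms4a1, and in colon from -0.0523 to 0.0855 for Xbp1, from -0.35 to 0.12 for Cd79a and from -0.30 to 0.15 for Cd79b. limma-voom gave 0.19 for Cd79b between tissues in Btnl2-KO and 0.0907 for Xbp1 by genotype in SI, and DESeq2 gave 0.0764 for Ms4a1 by genotype in SI. With the 3 libraries of high B cell or pancreas genes left out together, Cd79b between tissues in WT was -0.0723, the genotype difference in colon was 0.0297 for Jchain and 0.0254 for Mzb1, and the interaction was 0.0597 for Pigr and 0.69 for Ms4a1. The epithelial covariate gave -0.68 for Pigr in ileum against jejunum in WT IELs and 0.43 for its genotype difference in ileal IELs. Other IEC and IEL differences of members changed sign in 28 of 279 and 34 of 245 alternative fits. The cause was not tested.

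Counts over all genes were less stable. By genotype in SI 3 genes were called by edgeR, 177 by DESeq2 and 324 without SI WT replicates 2 and 3 (144 against 3 for the interaction). By genotype in ileal IELs edgeR called 0, DESeq2 221 and limma-voom 1207. Between ileum and duodenum in WT IECs edgeR called 565 and DESeq2 1042. There edgeR called 64 to 1483 when 1 library was left out and 0 with all libraries in 1 fit. For the list of B cell genes in Btnl2-KO, 10 were lower in SI by edgeR and 6 by limma-voom. No paired analysis was possible because the labels give no replicate numbers and do not tie libraries to mice. Counts below 10 limit Mzb1, Cd79a and Ms4a1 in IECs and IELs, and groups of 2 to 4 libraries limit every IEC and IEL test.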

Other observations

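Genes of the exocrine pancreas, which the bowel wall does not make, stood out in 2 of the 13 colon libraries: their summed level was 624 CPM in colon WT replicate 1 and 992 CPM in colon Btnl2-KO replicate 5, at most 1.07 CPM in the other 11 colon libraries and at most 0.194 CPM in any SI library. In these 2 colon libraries Jchain was 568.4 and 111 CPM, the highest of the WT group and the third lowest of the Btnl2-KO group, and Pigr was 4571 and 4883 CPM.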
